A study of Mus musculus with 12 samples.

Results

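The comparison set 1/8 of a mouse oocyte against whole oocytes amplified for few PCR cycles. Its members were chosen by their labels. Of the 12 libraries of the series, 6 were tested: the 2 libraries from 1/8 of an oocyte, and the 2 whole-oocyte libraries at 10 cycles and 2 at 14 cycles, pooled as 1 reference of 4. The 2 whole-oocyte libraries at 18 cycles are given beside some values, chosen after seeing the data and without a test. The study made the fractions to show how spike-in scaling treats smaller amounts of oocyte RNA, and here the question was which oocyte transcripts and classes stay measurable at 1/8 of the input. All libraries held poly(A) RNA of GV (germinal vesicle) oocytes, which the methods trace to a B6D2F1 female of 12 weeks. By the methods, the ovaries were kept in M2 medium with milrinone, a phosphodiesterase inhibitor that maintains meiotic arrest, before oocytes were released, and the groups differed by no allele or agent in the labels. Each reference library came from 1 whole oocyte, whereas the fractions were taken from diluted lysates of 2 oocytes. According to the methods, the fractions were amplified for 18 cycles and the same amount of the ERCC spike-in mix, a set of 92 synthetic RNAs, was added to every tube after dilution. Input, cycle number, oocyte and preparation therefore differed together and cannot be told apart. Since the methods name a single female, the replicates may share 1 animal, and the p-values measure only the spread between these 6 samples.

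A fully grown GV oocyte is arrested in prophase of the first meiotic division, with its transcription largely shut down. It lives on stored mRNA for the zona pellucida, for signals to the surrounding follicle cells, for the meiotic divisions and for the maternal proteins of the early embryo. Cumulus and granulosa cells surround the oocyte in the follicle and can adhere to it.

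At 1/8 of an oocyte, the abundant oocyte mRNAs remained measurable: all 15 oocyte markers examined, among them the zona protein genes Zp1, Zp2 and Zp3, the growth factor genes Gdf9 and Bmp15 and the linker histone gene H1foo, had at least 5 counts in both libraries. Losses were concentrated among the scarce transcripts. In amount per spike-in, most transcripts fell against this reference, to a median near 1/8, and their summed amount was lower still against whole oocytes at 18 cycles. In composition, edgeR with the filter called 0 genes at the adjusted threshold of 0.01, where DESeq2 called 300 higher and 259 lower and edgeR without the filter 313 and 374. Transcripts for ribosomal, nuclear-encoded respiratory-chain and proteasome subunits took larger shares in both 1/8 libraries, and transcripts of 8 kb or more smaller shares, than in any of the 4 whole oocytes. Except for the proteasome, whole oocytes at 18 cycles also lay beyond these 4 in the same direction.

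Sequencing gave the whole oocytes 11597144 and 9189672 gene counts at 10 cycles and 12349577 and 13806199 at 14 cycles, while the 1/8 libraries had 11404262 and 1702062. Replicate 2 of 1/8 was thus the shallowest library and limited detection. ERCC molecules took 0.308% (95% Wilson interval 0.305% to 0.311%), 0.277%, 0.288% and 0.282% of the counts in the whole oocytes. In 1/8 they took 1.99% (1.98% to 2.00%) and 2.10% (2.08% to 2.13%). The libraries carry no molecular identifiers, so these intervals cover counting error only. Reads on no annotated feature made up 10.5%, 10.6%, 10.8% and 10.4% in the whole oocytes and 7.75% and 8.32% in 1/8. Both measures separated the 1/8 libraries from all 4 whole oocytes.

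Oocyte RNA was read as gene counts per ERCC count, which were 323, 360, 347 and 354 in the whole oocytes and 49.3 and 46.5 in 1/8. The means were 346 ± 15.9 (SD, n = 4) and 47.9 ± 1.95 (SD, n = 2), a log2 difference of -2.85, and the groups did not overlap (exact two-sided permutation p = 0.133, the smallest that 2 against 4 libraries can give). The 1/8 libraries thus held 13.8% of the whole-oocyte value, beside 12.5% from the dilution alone. The size of the difference depended on the reference: the whole oocytes amplified for 18 cycles gave 1873 and 1158 gene counts per ERCC count, and against them the log2 difference was -4.94. Whether the effective amount of spike-in was equal between preparations was not tested. Among the 17 molecules with at least 50 counts in all 6 libraries, the log2 difference in share ran from -0.78 to 0.44, with a median of 0.12.

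Scaled to ERCC molecules, 15235 of 17738 genes tested fell in 1/8 (85.9% called by edgeR at an adjusted p under 0.01) and 0 rose, also without an adjustment at 0.05. DESeq2 called 15066 lower and 0 higher. The median log2 fold change over all genes tested was -2.99 on this scale, against -0.07 with median-ratio size factors over genes, which compare composition only. Among the oocyte markers, all 15 fell with ERCC scaling. Their log2 fold changes ran from -3.65 to -2.37, with a median of -3.12. The values for Gdf9 (-3.33, adjusted p = 1.09e-07 by edgeR) and H1foo (-2.68, adjusted p = 5.25e-07 by edgeR) fell on either side of the median of all genes.

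To compare detection at equal depth, each library was drawn down at random to 1702062 gene counts, and a gene with at least 5 drawn counts was taken as measured. The whole oocytes gave 12272, 11900, 12257 and 12344 measured genes, and the 1/8 libraries gave 11644 and 11600. Both 1/8 libraries were below all 4 whole oocytes. Whole oocyte 2 at 18 cycles, with nearly the same depth (1706478 gene counts), had 10870 genes with at least 5 counts. That was fewer than in either 1/8 library, so fewer measured genes were not particular to 1/8. Of the 11226 genes measured in both whole oocytes at 10 cycles, 10211 were measured in both 1/8 libraries, or 91.0%, while 10784, or 96.1%, were measured in both whole oocytes at 14 cycles. In both 1/8 libraries 10612 genes were measured, and 10569 of these, or 99.6%, were measured in at least 1 whole oocyte.

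What was lost followed the level of the transcript. Of genes with a mean of 5 to 10 drawn counts at 10 cycles, 41.7% were measured in both 1/8 libraries, against 65.4% in both whole oocytes at 14 cycles (n = 997). At 10 to 20 counts the shares were 77.9% and 94.5% (n = 1665), and at 20 to 50 counts they were 97.6% and 99.8% (n = 2551). From 50 counts on, at least 99.8% of the genes were measured in both 1/8 libraries. These splits describe genes, which are not replicates, and were not tested.

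**Figure D1:**
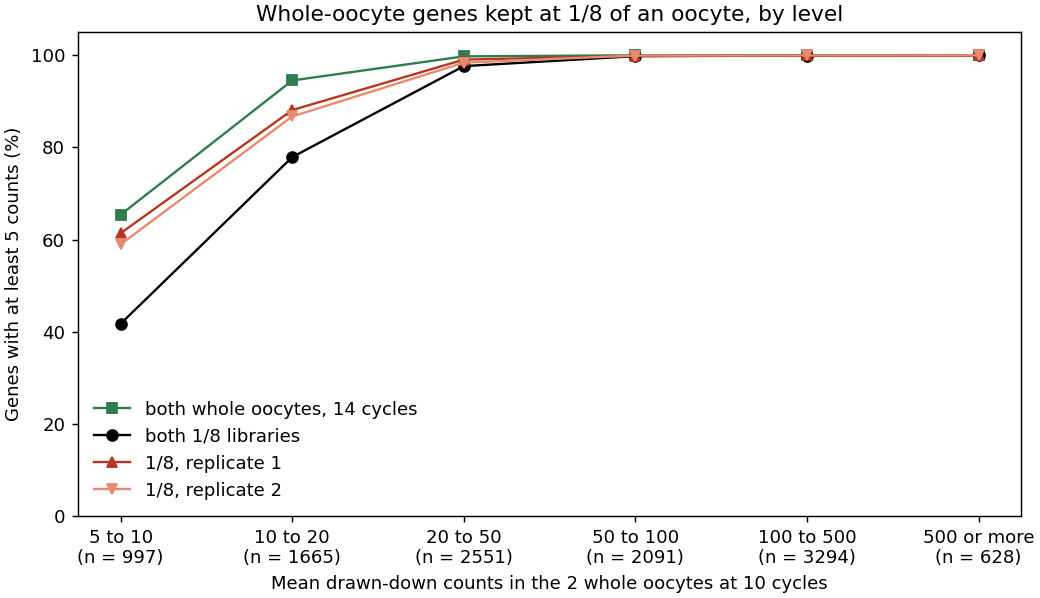
Share of the genes measured in both whole oocytes at 10 cycles (in percent) that had at least 5 drawn counts in the 1/8 libraries or in both whole oocytes at 14 cycles, by mean drawn counts at 10 cycles, with the number of genes in each class. Losses in 1/8 lay mainly below 50 counts, where 41.7%, 77.9% and 97.6% of genes were measured in both 1/8 libraries.

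Protein-coding transcripts stayed measurable more often than long intergenic noncoding RNAs (lincRNAs), antisense RNAs and processed pseudogenes, a difference that was not tested. Both 1/8 libraries measured 92.3% of 10090 protein-coding genes, 81.9% of 353 lincRNA genes, 77.3% of 352 antisense genes and 75.0% of 84 processed pseudogenes. Transcribed unprocessed pseudogenes stood at 95.8%, or 23 of 24. The 2 whole oocytes at 14 cycles ranked the first 4 of these classes in the same order, with 97.1%, 89.8%, 86.1% and 81.0%. The noncoding classes are scarcer, with a median of 20 drawn counts for lincRNAs and 14.5 for antisense genes against 65.5 for protein-coding genes. Among genes of 10 to 50 drawn counts, the shares in 1/8 came to 90.0% for protein-coding genes, 90.1% for lincRNAs, 88.6% for antisense genes and 85.7% for 42 processed pseudogenes. At that level, the kept share of protein-coding genes was lower for longer exons: 94.2% under 1 kb (n = 104), 91.7% at 1 to 2 kb, 91.6% at 2 to 4 kb, 89.2% at 4 to 8 kb and 87.0% at 8 kb or more (n = 617). The whole oocytes at 14 cycles kept 97.1% to 98.3% in these length classes, without such an order.

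Only 7 genes were measured in all 4 whole oocytes after the draw and had no drawn count in either 1/8 library, and 0 genes showed the opposite pattern. The 7 were Usp35, a ubiquitin peptidase gene, Mgam, which encodes an intestinal maltase-glucoamylase, Stoml1, Ints7, an Integrator subunit gene, Zfp949, Golga1, which encodes a Golgi golgin, and the noncoding Gm15606. In the full deposited counts, Golga1 had 34, 19, 45 and 59 counts in the whole oocytes and 0 in both 1/8 libraries. Gm15606 had 38, 26, 23 and 56 and again 0 in both. The other 5 had 6 to 11 counts in replicate 1 of 1/8, so for these a low level and an absence cannot be told apart at the depth of replicate 2.

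The composition test with edgeR called 0 genes higher (0% of 17738) and 0 lower (0%) at an adjusted p under 0.01, the smallest adjusted p being 0.0346. At an unadjusted p under 0.05, 1545 genes were higher and 2274 lower, and DESeq2 called 300 higher and 259 lower at the adjusted threshold. At an adjusted p under 0.05, 185 genes were higher (1.04%) and 143 lower (0.806%). Both counts were 0 when the same 6 libraries were fitted as 3 groups, when only the whole oocytes at 10 or at 14 cycles were the reference, and without replicate 1 at 10 cycles, without replicate 1 at 14 cycles or without replicate 2 at 14 cycles, whereas without replicate 2 at 10 cycles they were 200 higher and 185 lower. Without 1/8 replicate 1 they were 368 higher and 121 lower, and without 1/8 replicate 2 they were 340 higher and 509 lower, so the balance of directions turned with the 1/8 library kept. In 2272 genes (12.8%) both 1/8 libraries were above all 4 whole oocytes, and in 3268 (18.4%) they were below.

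The 10 transcripts with the highest level per length in the whole oocytes included Gdf9 (-0.40) and Padi6 (-0.74). Both 1/8 libraries were below all 4 reference oocytes for each of them. CPM denotes counts scaled to the total gene counts of the library. Gdf9 had 4331 and 3535 CPM in 1/8 and 1606 and 1579 in whole oocytes at 18 cycles. Padi6 had 3879 and 2814 CPM in 1/8 and 1445 and 1016 at 18 cycles, so these lower values were not particular to 1/8. The others among the 10 are given here. In TPM, a level per exon length computed from the counts, H1foo (ENSMUSG00000042279, GRCm38 chromosome 6, 115944938 to 115950236), the oocyte linker histone, stood at 9168, 8362, 9690 and 9877 in the whole oocytes and at 12206 and 7518 in 1/8. The 2 values of 1/8 lay on either side of all 4 whole oocytes, and the composition difference was a log2 fold change of 0.23 (adjusted p = 0.486 by edgeR). Elobl was nearly constant, with 18166, 18973, 18487 and 18486 normalized counts in the whole oocytes and 18868 and 19138 in 1/8, a log2 fold change of 0.04. For Zbed3, a gene of the subcortical maternal complex, the values were 53709, 34698, 45878 and 43947 normalized counts against 59677 and 39308, which overlap. Dppa3, which protects the maternal genome from demethylation, and Zp3, a zona protein gene, also overlapped between groups, with log2 fold changes of -0.16 and -0.11. The remaining entries among the 10 were AY036118, CT010467.1 and Gm42418, which overlap each other at the ribosomal RNA repeat on chromosome 17. Those 3 entries together took 1.18%, 1.04%, 2.53% and 1.14% of the gene counts in the whole oocytes and 1.96% and 2.15% in 1/8, so that whole oocyte 1 at 14 cycles was above both 1/8 libraries. Reads of this repeat are uncertain, since the strand setting of the counting is not settled and reads with several alignments are not counted.

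For the oocyte's signals to its follicle, 0 of 4 genes passed the threshold. Gdf9 (ENSMUSG00000018238, chromosome 11, 53431023 to 53437904), a growth factor that acts on granulosa cells, had 44068, 43054, 45410 and 47639 normalized counts in the whole oocytes and 37348 and 30873 in 1/8. Both 1/8 libraries were below all 4 whole oocytes, at a log2 fold change of -0.40 (adjusted p = 0.119 by edgeR), which did not pass. Bmp15, its close relative, stood at 4542, 3922, 4334 and 4202 TPM against 2502 and 2860, again without overlap (-0.53, adjusted p = 0.0585 by edgeR). Kit, the receptor through which the follicle signals back, overlapped between groups at -0.10. The median of these 4 genes of growth factors and Kit was -0.29, beside -0.07 over all genes tested.

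Of the 7 genes of the zona pellucida and sperm reception, 6 were measured in both 1/8 libraries. Zp2 had 5171, 3932, 4275 and 4769 TPM in the whole oocytes and 2843 and 2770 in 1/8, and the groups did not overlap (-0.55, adjusted p = 0.0616 by edgeR). Izumo1r, the sperm receptor Juno, had the highest value of the group at 0.33. Cd81, a tetraspanin gene, had 145, 24, 37 and 43 counts in the whole oocytes and 0 in both 1/8 libraries (adjusted p = 0.0463 by edgeR, not past 0.01). It overlaps another gene. The group's median was -0.22, or -0.48 without 1/8 replicate 1 and -0.06 without replicate 2.

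All 8 genes of the subcortical maternal complex, a protein assembly of the oocyte cortex that the embryo needs for its cleavages, were measured in both 1/8 libraries, with a median of -0.14 (-0.30 without 1/8 replicate 1 and -0.05 without replicate 2). Padi6 (ENSMUSG00000040935, chromosome 4, 140727355 to 140742643) had 56591, 42748, 48359 and 46305 normalized counts in the whole oocytes and 33454 and 24572 in 1/8. All 4 whole oocytes were above both, at a log2 fold change of -0.74 (adjusted p = 0.0478 by edgeR), short of the 0.01 threshold. Nlrp5, the gene of the protein MATER, stood at 918, 668, 852 and 790 TPM against 404 and 500 (-0.70, adjusted p = 0.0524 by edgeR). Ooep differed in the other direction, with 3734, 3995, 3457 and 4058 TPM in the whole oocytes and 4343 and 6108 in 1/8, at 0.59. The members of 1 complex thus lay on both sides of 0.

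The oocyte NLRP genes outside the complex took 0.833%, 0.805%, 0.775% and 0.815% of the gene counts in the whole oocytes and 0.532% and 0.651% in 1/8, and the groups did not overlap (exact two-sided permutation p = 0.133, 0.387 after Benjamini-Hochberg adjustment over 29 classes). Whole oocytes at 18 cycles were lower still, at 0.171% and 0.147%. The median of the 8 members tested was -0.40, and it was -0.72 without 1/8 replicate 2 and -0.24 without replicate 1. In 6 of the 8, both 1/8 libraries were below all whole oocytes, beside 18.4% of all genes tested. Nlrp14, the most abundant, stood at -0.34 and Nlrp4c at -1.40 (adjusted p = 0.0568 by edgeR), while Nlrp4e was at 0.12. Nlrp4 genes have close paralogs, so their values are uncertain. The 11 oocyte transcription factor genes tested had a median of -0.31, or -0.09 without replicate 2 at 14 cycles. Obox2, the most abundant and also 1 of a family of paralogs, stood at 1721, 1964, 1397 and 1934 TPM against 866 and 1204 (-0.63). Obox6 had 5, 0, 2 and 3 counts in the whole oocytes and 34 and 1 in 1/8, too few for a comparison.

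**Figure D2:**
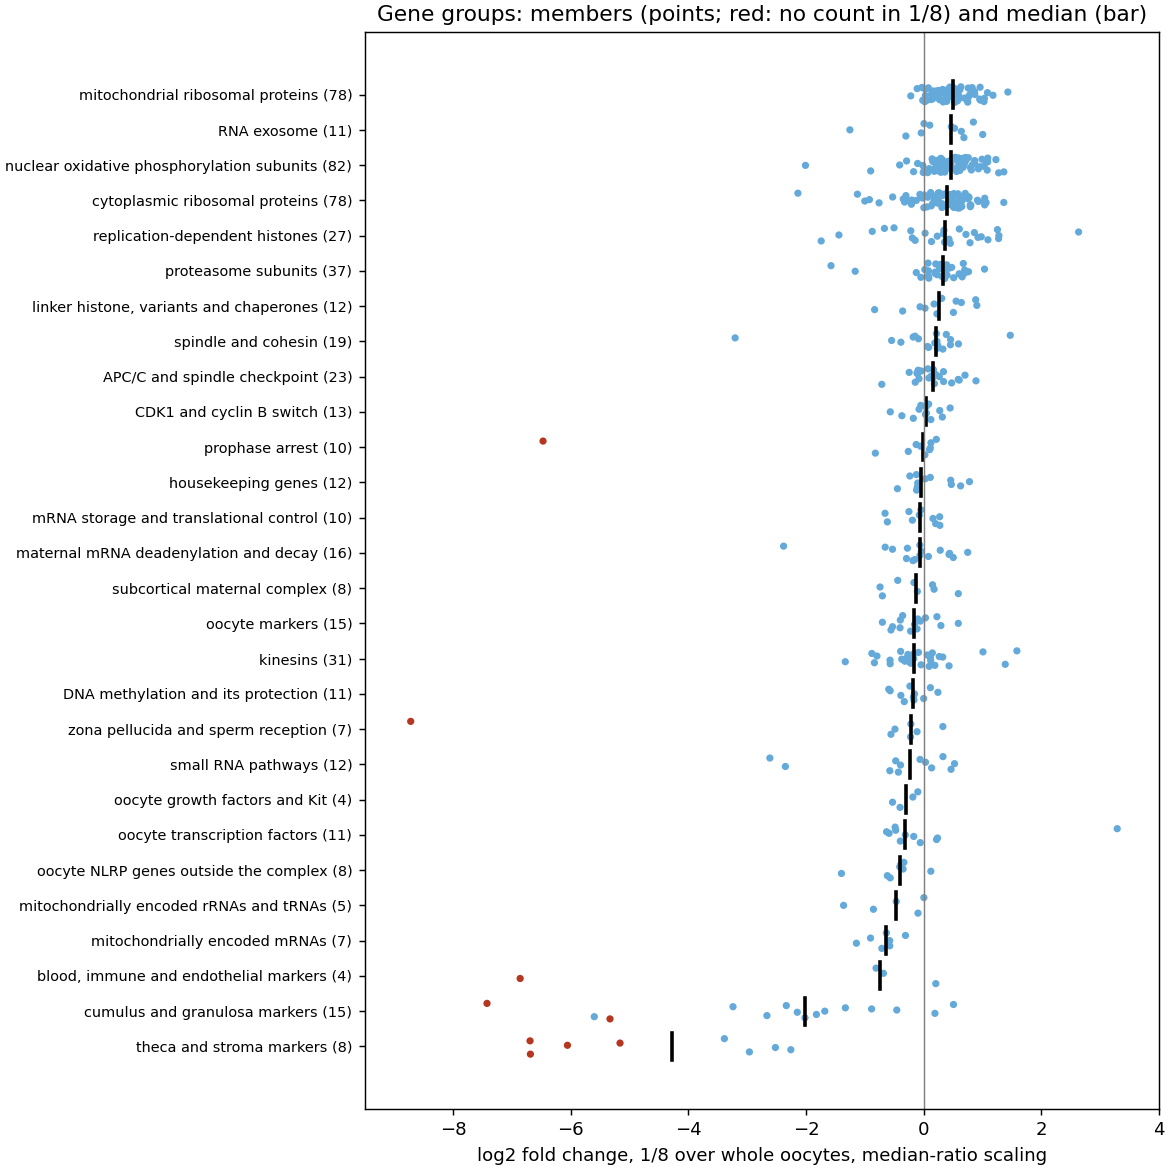
Log2 fold change in composition (1/8 over the 4 whole oocytes, median-ratio scaling) of every group member that passed the count filter (points, with red for members without a count in both 1/8 libraries) and the group median (bar), with the number of members in parentheses. Medians ran from 0.50 for mitochondrial ribosomal proteins to -4.27 for theca and stroma markers, or -2.46 for these with absent genes at the floor.

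The meiotic machinery was measured nearly in full. All 13 genes of the CDK1 and cyclin B switch and all 23 of the anaphase-promoting complex and spindle checkpoint were measured in both 1/8 libraries, with medians of 0.04 and 0.16 and 0 members past the threshold in either direction. The first median changed sign when 1/8 replicate 1 was left out, to -0.09, and was 0.24 without replicate 2. Mos, the kinase that holds eggs in metaphase, stood at 2904, 2863, 2736 and 3090 TPM in the whole oocytes and at 3401 and 1977 in 1/8, on either side of the reference. Cdc25b, the phosphatase that activates CDK1, was lower in both 1/8 libraries, with 102 ± 3.18 TPM (SD, n = 4) in the whole oocytes against 59.1 and 66.9 (-0.57, adjusted p = 0.0797 by edgeR). Map2k1, a kinase of the pathway that Mos drives, was higher in both, with 155, 129, 158 and 155 TPM against 195 and 175 (0.45, adjusted p = 0.125 by edgeR). Among the checkpoint genes, Bub1b overlapped at -0.09, whereas the scaffold subunit gene Anapc1 was lower at -0.71 and the substrate-binding Anapc10 higher at 0.89. Of these 23 genes, 9 were above all whole oocytes in both 1/8 libraries, beside 12.8% of all genes tested. Only 1 was below, beside 18.4%. Of the 20 spindle and cohesin genes, 17 were measured in both 1/8 libraries and 17 in all 4 whole oocytes. Birc5, the survivin of the chromosomal passenger complex, stood at 0.46. Stag3, a meiotic cohesin subunit, was highest at 1.47, with 39, 23, 39 and 28 counts against 129 and 3, so its value rested on 1/8 replicate 1. Rad21l, a meiotic cohesin gene, had 37, 12, 51 and 84 counts in the whole oocytes and 2 in each 1/8 library.

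Of 10 genes of prophase arrest, 8 were measured in both 1/8 libraries and 9 in all 4 whole oocytes. The median of -0.01 ran from -0.26 without 1/8 replicate 1 to 0.08 without replicate 1 at 10 cycles. Gja4, the connexin of the oocyte's gap junctions with cumulus cells, had 2610, 2807, 2591 and 2758 TPM in the whole oocytes and 3265 and 1983 in 1/8, around the reference on both sides. Gnas, the stimulatory G protein gene, was highest at 0.22, with overlap. Npr2, the natriuretic peptide receptor of the surrounding granulosa cells, had 31, 4, 0 and 18 counts in the whole oocytes and 0 in both 1/8 libraries. The kinesins, motor proteins with long mRNAs, had a median of -0.17 over 31 tested genes (-0.08 without 1/8 replicate 1), with Kif22, the most abundant, at 0.33. The extremes, Kif28 at 1.59 and Kif21a at -1.33, had 20 and 2 counts and 1 and 11 counts in 1/8.

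Stored mRNA is held silent and later degraded by proteins whose own mRNAs were all or nearly all measured. All 10 genes of mRNA storage and translational control and 15 of 16 genes of deadenylation and decay were measured in both 1/8 libraries. In all 4 whole oocytes the numbers measured were also 10 and 15. The medians were -0.06 and -0.06. The first was -0.14 without 1/8 replicate 1, and the second 0.06 without it and -0.13 without replicate 2. Zar1, a factor of mRNA storage, had 1347, 1298, 1412 and 1672 TPM in the whole oocytes and 1864 and 1282 in 1/8, with overlap, and Ybx2, an mRNA-binding protein gene, was highest at 0.28. Patl2, a translational repressor, was lower without overlap, at 134, 112, 135 and 147 TPM against 78.1 and 73.6 (-0.66, adjusted p = 0.0717 by edgeR). Btg4, the adaptor that brings the deadenylase to maternal mRNA, overlapped at -0.18, while Zfp36l2 was highest at 0.75 and Tut4 lowest at -2.38, the latter with 6 and 0 counts in 1/8. The 11 subunits of the RNA exosome had a median of 0.47, or 0.22 without 1/8 replicate 1, the highest being Exosc3 at 1.00 (adjusted p = 0.0434 by edgeR, not past 0.01) and the lowest Exosc6 at -1.25. Exosc4, the most abundant, stood at -0.04. In the small RNA pathways, the median was -0.23 over 12 genes (-0.14 without replicate 1 at 14 cycles). Tdrd1, the most abundant, stood at 0.03 and Mael, the highest, at 0.53, while the piRNA helicase gene Mov10l1 had 117, 65, 155 and 132 counts in the whole oocytes and 12 and 5 in 1/8 (-2.61, adjusted p = 0.0434 by edgeR).

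Genes of chromatin were split. The 11 genes of DNA methylation and its protection were all measured, with a median of -0.17 (-0.39 without 1/8 replicate 1 and -0.10 without replicate 2), the lowest being Tet1 at -0.59 and the highest Zfp57, a guardian of imprints, at 0.24. Linker histone, histone variant and chaperone genes had a median of 0.27 over 12 members, or 0.13 without 1/8 replicate 1. The chaperone gene Asf1a had 140, 191, 160.0 and 165 TPM in the whole oocytes and 251 and 303 in 1/8, all higher (0.89, adjusted p = 0.0371 by edgeR, not past 0.01). H2afx, the variant that is phosphorylated at DNA breaks, stood at 0.91, and Hira, the chaperone gene with the lowest value, at -0.83. Replication-dependent histone genes, whose mRNAs mostly lack poly(A) tails, were scarce throughout. Of 67, only 10 were measured in both 1/8 libraries and 6 in all 4 whole oocytes, and 27 passed the filter. Their median of 0.36 turned to -0.15 without the filter and was 0.21 without 1/8 replicate 1 and 0.57 without replicate 1 at 14 cycles, and their many paralogs make the values uncertain. Hist1h2bc, the most abundant, stood at 0.45, and the extremes, Hist2h3c2 at 2.64 and Hist1h1e at -1.74, rested on few counts. Among 13 housekeeping genes, 10 were measured in both 1/8 libraries and 11 in all 4 whole oocytes. Actb, cytoplasmic actin, overlapped at -0.12. Gapdh, the glycolytic enzyme often used as a reference, had 87, 32, 62 and 81 counts in the whole oocytes and 53 and 4 in 1/8. B2m stood highest at 0.78, and the group's median of -0.04 was -0.17 without 1/8 replicate 1 and 0.27 without replicate 2.

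Groups of ribosomal, respiratory-chain and proteasome subunits took larger shares in both 1/8 libraries than in the 4 whole oocytes of the reference. Mitochondrial ribosomal proteins took 0.444%, 0.476%, 0.468% and 0.502% of gene counts in the whole oocytes and 0.635% and 0.604% in 1/8. Cytoplasmic ribosomal proteins took 0.311%, 0.299%, 0.284% and 0.303% against 0.375% and 0.411%. Nuclear subunits of oxidative phosphorylation took 0.635%, 0.682%, 0.614% and 0.694% against 0.826% and 0.988%. Together with the proteasome subunits (a mean of 0.591% ± 0.0206, n = 4, against 0.774% ± 0.00742, n = 2), these classes did not overlap between groups (exact two-sided permutation p = 0.133 for each, 0.387 adjusted). Whole oocytes at 18 cycles were higher still for mitochondrial ribosomal proteins (0.890% and 0.811%) and oxidative phosphorylation (1.26% and 1.06%), similar to 1/8 for cytoplasmic ribosomal proteins (0.424% and 0.357%) and below 1/8 for the proteasome (0.585% and 0.4997%). Apart from the proteasome, these larger shares were thus not particular to 1/8. Whether the proteasome share was particular to 1/8 was not tested, since libraries from 1/2 and 1/4 of an oocyte were not used. Of the 29 classes examined, 6 were higher and 4 lower without overlap and 19 overlapped.

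The median log2 fold changes were 0.50 for 78 mitochondrial ribosomal protein genes, 0.46 for 82 oxidative phosphorylation genes, 0.40 for 78 cytoplasmic ribosomal protein genes and 0.34 for 37 proteasome genes, beside -0.07 over all genes tested. At an adjusted p under 0.05, 9, 10, 3 and 3 members were higher in these groups (beside 1.04% of all genes tested) and 1 was lower (beside 0.806%), and 0 passed 0.01. As for all genes, the counts at 0.05 were 0 with 3 groups in 1 fit and when replicate 1 at 10 cycles or either replicate at 14 cycles was left out. In the first group these 9 included Mrps15 (1.18) and Mrpl3 (1.09). Its most abundant member, Mrpl34, overlapped at 0.59, and its range ran from -0.22 for Mrps5 to 1.43 for Mrps10. Of the respiratory chain, Cox4i1 was the most abundant, at 0.25 with overlap, and Ndufb2, which overlaps 3 other genes, the highest, at 1.36. Among proteasome genes, Psmb2, the most abundant, overlapped at 0.30, and Psmb10 was lowest at -1.57, with overlap and few counts. Cox5a, a subunit of cytochrome c oxidase, had 219, 324, 211 and 226 TPM in the whole oocytes and 360 and 733 in 1/8 (1.28, adjusted p = 0.0434 by edgeR). Both 1/8 libraries were above every whole oocyte, and they differed from each other by more than the whole oocytes did. The exception was Uqcrc1, a core subunit of complex III, with 123, 63, 103 and 119 counts in the whole oocytes and 27 and 2 in 1/8 (-2.01, adjusted p = 0.0478 by edgeR). Among cytoplasmic ribosomal proteins, Rps27l had 232, 299, 189 and 218 TPM against 359 and 762 (1.36, adjusted p = 0.042 by edgeR), and Rpl39l stood at 0.93. Rplp1, the most abundant, was at 0.52 and Rps27, with at most 14 counts in any library, at -2.14. Ribosomal protein genes have many processed copies in the genome, which makes single values uncertain.

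Exon length also ordered the composition differences. Among the gene groups, the mitochondrial mRNAs, with a median exon length of 1144 bases, and the oocyte transcription factors, with 1900, had negative medians. Among genes with a mean of at least 50 normalized counts, the median log2 fold change was 0.24 under 1 kb (n = 479), 0.23 at 1 to 2 kb, 0.12 at 2 to 4 kb, -0.02 at 4 to 8 kb and -0.16 at 8 kb or more (n = 1967). Across 10224 genes, Spearman's rho between log2 fold change and exon length was -0.28, a description, since genes are not independent replicates. Within single libraries, rho between a gene's deviation and its length was 0.18, 0.01, -0.04 and -0.14 in the whole oocytes and -0.30 and -0.14 in 1/8, so by this measure replicate 2 of 1/8 did not stand apart from replicate 2 at 14 cycles. Genes of 8 kb or more took 21.4%, 22.1%, 20.3% and 20.3% of counts in the whole oocytes and 18.0% and 19.9% in 1/8, without overlap but close to it in 1 of the 2. The whole oocytes amplified for 18 cycles were lower still, at 16.7% and 17.6%. For GC content the 1/8 libraries differed from each other: rho between a gene's deviation and its GC content was 0.26 in replicate 1 and -0.27 in replicate 2. The part of length and GC content in the gene group differences was not tested.

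**Figure D3:**
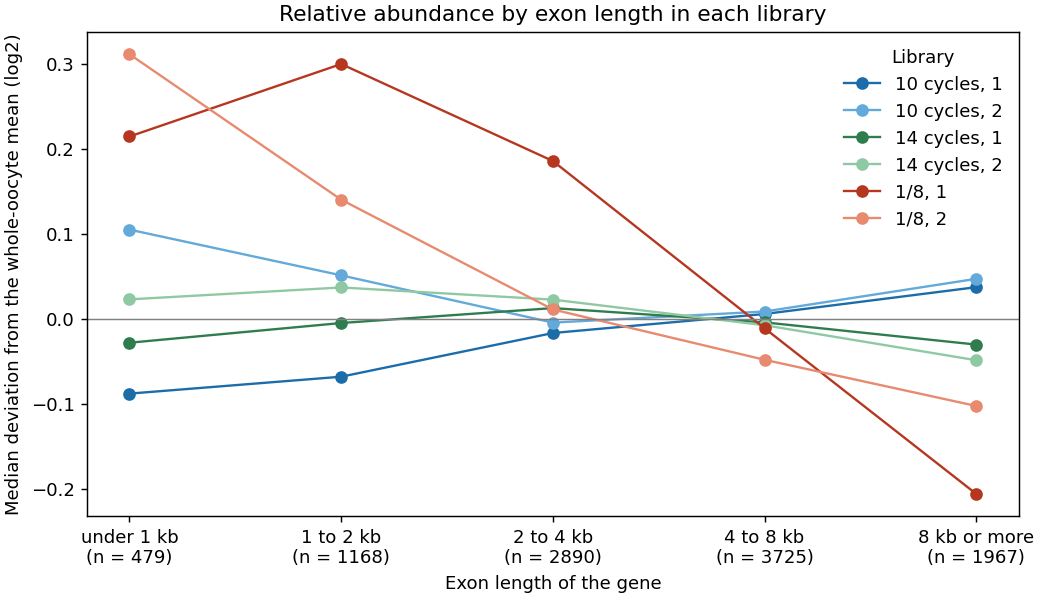
Median deviation of each library from the whole-oocyte mean (log2 of normalized counts) by exon length of the gene, for genes with a mean of at least 50 normalized counts, with the number of genes per class. Both 1/8 libraries were above all whole oocytes under 1 kb and below them at 8 kb or more.

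Genes of the mitochondrial genome together took 0.329%, 0.197%, 0.284% and 0.301% of gene counts in the whole oocytes and 0.131% and 0.195% in 1/8. The groups did not overlap, but replicate 2 of 1/8 lay next to the lowest whole oocyte (exact two-sided permutation p = 0.133, 0.387 adjusted). Whole oocytes at 18 cycles were lower still, at 0.0407% and 0.0665%. No mitochondrial gene passed an adjusted p of 0.05 by edgeR. Of the 13 mitochondrial mRNAs, 7 were measured in both 1/8 libraries, with a median of -0.63 (-0.94 without 1/8 replicate 2 and -0.33 without replicate 1), and the same 7 were measured in all 4 whole oocytes. The other 6 had at most 1 count in any of the 6 libraries, 4 of them none at all. mt-Cytb, the cytochrome b gene, had 1047, 827, 1020.0 and 839 TPM in the whole oocytes and 521 and 575 in 1/8 (-0.63, adjusted p = 0.0646 by edgeR). mt-Co1, a catalytic subunit of cytochrome c oxidase, ranged more widely, with 1266, 445, 597 and 1094 TPM against 302 and 400.3 (-1.14). mt-Nd6 had the highest value of the group, at -0.31. The large mitochondrial ribosomal RNA mt-Rnr2 stood at -0.85 (adjusted p = 0.069 by edgeR). Of the 24 mitochondrial ribosomal and transfer RNA genes, 2 were measured in both 1/8 libraries and 2 in all 4 whole oocytes. The 5 that passed the filter had a median of -0.47, from -1.36 for mt-Tq to 0.00 for mt-Tp. This median was -0.67 without replicate 1 at 14 cycles, -0.30 without replicate 1 at 10 cycles, -1.06 without the filter and -0.09 against the whole oocytes at 14 cycles alone. Mitochondrial genes have nuclear copies, and reads that align to both are not counted, so their levels are uncertain.

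Of single genes, none passed the threshold in composition with edgeR, so those with the smallest p among genes with at least 50 mean normalized counts and no overlap between groups are given, 10 in each direction, all with an adjusted p of 0.0346 by edgeR. Over the alternative settings their adjusted p reached 0.309, and each passed 0.01 under 2 of them, DESeq2 and no filter. The higher genes were Rab5if, Sla2, Psma7, Rheb, Arpc5l, Rcn2, Tex12, Med30, Txnl4a and Dmac1, with log2 fold changes from 1.01 for Rcn2 to 1.58 for Tex12. Psma7 (ENSMUSG00000027566, chromosome 2, 180036374 to 180042433), a core proteasome subunit, had 5036, 5472, 5853 and 6590 normalized counts in the whole oocytes and 11037 and 12504 in 1/8. Every value of 1/8 was far above the reference oocytes, at a log2 fold change of 1.04. Whole oocytes at 18 cycles had 1075 and 914 CPM of Psma7, with 813 in the highest reference oocyte and 1280 and 1432 in 1/8. Tex12 (ENSMUSG00000032065, chromosome 9, 50556819 to 50561325), part of the synaptonemal complex of meiotic chromosomes, had 154, 111, 125 and 131 against 344 and 446. Rheb, the GTPase that activates mTORC1, had 482, 497, 409 and 494 against 992 and 1119 (1.16). Its annotated exons span 7721 bases. Rab5if and Sla2 overlap each other on chromosome 2, Arpc5l overlaps Rpl35 and Wdr38, and Txnl4a overlaps Gm16286. With the strand setting unsettled, the values of these genes are uncertain. Med30, a Mediator subunit gene, stood at 1.24. By CPM, whole oocytes at 18 cycles were above all reference oocytes for Psma7, Rab5if, Sla2, Arpc5l, Med30 and Txnl4a. They were below them for Rheb, Rcn2 and Tex12, and for Dmac1 they lay on either side.

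The lower genes were BC005537, Gm48073, Ankhd1, Trpm7, Gm43574, Sirt1, Tlr9, Mertk, Usp35 and Gm42494, from -1.27 for Gm42494 to -4.40 for Usp35, whose fitted value was -9.58 without 1/8 replicate 1, since replicate 2 had 0 counts of it, so the size of its difference was not bounded. Trpm7 (ENSMUSG00000027365, chromosome 2, 126791565 to 126876230), a channel kinase that carries divalent ions into the oocyte, had 1292, 805, 1321 and 886 normalized counts in the whole oocytes and 363 and 282 in 1/8 (-1.71). The lowest whole oocyte was above both. Sirt1 (ENSMUSG00000020063, chromosome 10, 63319005 to 63381704), an NAD-dependent deacetylase, had 345, 459, 411 and 438 against 137 and 159 (-1.51). Mertk, a receptor for apoptotic cells, had 506, 615, 565 and 448 against 206 and 205 (-1.37). Usp35 had 161, 47, 104 and 164 counts in the whole oocytes and 6 and 0 in 1/8. Gm48073, Gm43574 and Gm42494 are not protein-coding, and Tlr9, an innate DNA sensor, is at a low level in all 6 libraries. Sirt1, Ankhd1 and Gm42494 each overlap another annotated gene, so the unsettled strand setting makes their values uncertain as well. By CPM, both whole oocytes at 18 cycles were also below all 4 reference oocytes for these lower genes, except BC005537 and Usp35. Trpm7 had 27.5 and 15.8 CPM at 18 cycles, with 94.6 in the lowest reference oocyte. Apart from those exceptions, lower values of these genes were thus not particular to 1/8. At an adjusted p under 0.05, the 185 higher genes had a median exon length of 2753 bases and the 143 lower genes 5720, beside 3598 over all genes tested. Their median log2 fold changes were 0.87 and -2.01.

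Among protein-coding genes without a count in at least 1 of the 1/8 libraries, Tuba3b, an alpha-tubulin gene, ranked highest per length in the whole oocytes, with 443, 911, 439 and 261 normalized counts, and had 0 and 236 in 1/8. The next were Sdcbp2, Hsd3b1, Tceal9, Gm9887, Prss37, Gm26741, Akr1c18, Ms4a10 and Atg10. Some of these genes varied widely between the whole oocytes, and others such as Atg10 did not, with 57.5, 78.7, 58.0 and 64.6 normalized counts against 46.9 and 0 in 1/8. Hsd3b1, an enzyme of steroid synthesis, had 511, 5.56, 24.0 and 133 normalized counts in the whole oocytes and 4.54 and 0 in 1/8. Akr1c18, which breaks down progesterone, had 156, 0, 8.67 and 44.6 in the whole oocytes and no count in 1/8, so 1 of the whole oocytes lacked it as well. Both act in steroid-producing follicle and luteal cells, and both were highest in the same whole oocytes, replicate 1 at 10 cycles and replicate 2 at 14 cycles.

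Most markers of other ovarian cells were at or near 0 in 1/8 and uneven among the whole oocytes. Of 17 cumulus and granulosa markers, 4 were measured in both 1/8 libraries and 4 in all 4 whole oocytes, and 15 passed the filter. Cyp19a1 and Nr5a2 were even among the whole oocytes and stayed measurable. Cyp19a1 had 319, 300, 470 and 636 counts in the whole oocytes and 484 and 60 in 1/8 (0.19, with overlap). Nr5a2 had 536, 344, 546 and 643 against 363 and 48 (-0.46, adjusted p = 0.219 by edgeR). Summed as CPM (counts scaled to the total gene counts of the library), the markers came to 435, 304, 320 and 429 in the whole oocytes and 378 and 409 in 1/8, most of it from Serpine2, a protease inhibitor gene, at 0.51 (adjusted p = 0.091 by edgeR). Inha, the inhibin alpha gene of granulosa cells, had 396, 3, 45 and 441 counts in the whole oocytes and 2 and 2 in 1/8. Gja1, the connexin between granulosa cells, had 377, 0, 29 and 251 against 0 and 10. Both genes were high in replicate 1 at 10 cycles and replicate 2 at 14 cycles and low in the other whole oocytes, and so overlapped with 1/8. Vim, with 74, 0, 5 and 25 counts in the whole oocytes, Foxl2 and Fshr had 0 in both 1/8 libraries, and Tnfaip6 had 0 in all 6. Kitl, the ligand of Kit made by granulosa cells, differed from these, with 127, 115, 189 and 158 counts in the whole oocytes and 17 and 8 in 1/8 (-2.33, adjusted p = 0.0453 by edgeR). The list's median was -2.02, or -1.82 with genes absent from a group at the floor and -3.79 without 1/8 replicate 1, and it turned to 0.14 when only genes with at least 10 counts in every library were kept.

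Theca and stroma markers summed to 108, 3.92, 14.6 and 31.3 CPM in the whole oocytes and 4.38 and 6.46 in 1/8. None of the 9 was measured in both 1/8 libraries, and only 1 was measured in all 4 whole oocytes. Cyp11a1, which starts steroid synthesis from cholesterol, was the most abundant, with 772, 13, 61 and 269 counts against 41 and 1. Star, which brings cholesterol into mitochondria, had the highest value of the list, -2.26, with 285, 6, 22 and 99 counts against 7 and 8 and overlap. Acta2, with 39, 0, 5 and 19 counts in the whole oocytes, Cyp17a1, Col1a1, Col1a2 and Col3a1 had 0 in both 1/8 libraries. The median of the 8 that passed the filter was -4.27, or -2.46 with absent genes at the floor, and it was -2.51 without replicate 1 at 10 cycles and -5.70 without 1/8 replicate 2. Blood, immune and endothelial markers summed to 53.3, 45.3, 44.9 and 55.6 CPM in the whole oocytes and 31.0 and 26.4 in 1/8, nearly all from Pecam1, an adhesion gene with 527, 380, 479 and 685 counts in the whole oocytes. Hba-a1 had 0 in all 6 libraries, and Ptprc, Hbb-bs and Cdh5 had at most 1 count in any whole oocyte, so their 0 in 1/8 carries no information. Lyz2 had 57, 0, 2 and 10 counts in the whole oocytes and 0 in both 1/8 libraries, and Cd68, the highest at 0.21, had 17, 11, 19 and 23 against 28 and 0. The 4 tested had a median of -0.75, or -3.80 without 1/8 replicate 1. Follicle-cell RNA attached to a whole oocyte and a lower level per cell cannot be told apart in these libraries, and the part of these markers in the other differences was not tested.

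**Figure D4:**
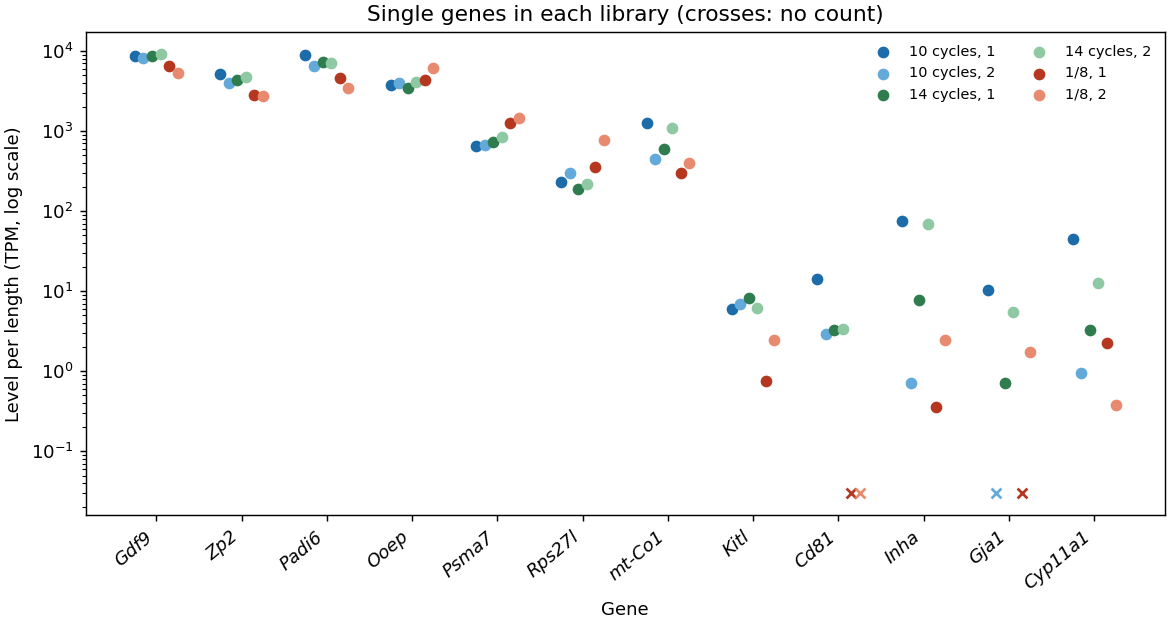
TPM on a log axis in each of the 6 libraries for 12 genes of the groups described, chosen after their values were seen, with crosses for libraries without a count. Gdf9, Zp2 and Padi6 were lower and Ooep, Psma7 and Rps27l higher in both 1/8 libraries than in all 4 whole oocytes, while Inha, Gja1 and Cyp11a1 varied widely among the whole oocytes.

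At equal depth, the 1/8 libraries differed more from each other than the pairs of whole oocytes did, in 1 pair per group and without a test. The median absolute log2 difference between the 2 libraries of a group was 0.47 for 1/8, 0.32 at 10 cycles and 0.24 at 14 cycles over 11891 genes. Differences above 2-fold were found in 19.0%, 8.59% and 5.60% of the genes. For genes of 5 to 10 drawn counts the median differences were 1.00, 0.65 and 0.53, and for those of 500 or more they were 0.28, 0.19 and 0.12. The 1/8 pair differed most at each of the 6 levels. On the deposited counts, where depths differ, chi-square per degree of freedom between the pair was 14.1 for 1/8, 18.4 at 10 cycles and 14.1 at 14 cycles, and did not set 1/8 apart. Whether this spread comes from the dilution, the cycles or the oocytes cannot be told apart.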

How the data were processed

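Raw read counts for 55573 genes and 92 ERCC molecules per library were deposited by the authors, without normalization. The submitters' notes name cutadapt 2.5, STAR 2.7.2a and HTSeq 0.9.1. Gene positions and exon lengths were those of GENCODE release 21 for mouse, on GRCm38, where 55480 of these genes are listed.

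The 6 libraries were fitted with edgeR 4.0.16 (R 4.3.3, quasi-likelihood test, Benjamini-Hochberg adjustment, threshold 0.01), after a filter of at least 5 counts in at least 2 libraries. Size factors were median ratios over genes or over ERCC molecules. DESeq2 1.42.0 was an alternative. TPM, CPM and detection at equal depth were computed with numpy 2.4.6, pandas 2.3.3 and scipy 1.17.1. Single values per library were compared by exact permutation tests.

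Members and gene lists were chosen with earlier results of these data known. Named genes were, per list, the most abundant member and those with the largest and smallest fold change; the 10 genes of smallest p in each direction; the 10 highest per length in whole oocytes; and the 10 highest protein-coding genes absent from a 1/8 library. Zp2, Nlrp5, Rpl39l, Cox5a, Mrps15, Mrpl3, Asf1a, Kitl, Inha and Gja1 were added after their values were seen. Whole oocytes at 18 cycles were described without a test, and libraries from 1/2 and 1/4 of an oocyte were not used.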

Additional observations from a re-analysis of the deposited data

Results flagged for a closer look

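Among the 30 measures examined over the 4 whole oocytes, 1 library stood far from the others in a single measure. LincRNA genes took 2.79% of the gene counts in replicate 1 at 14 cycles, against 2.02%, 1.98% and 2.04% in the other whole oocytes, a gap of 0.922 of the group's whole range. Chance alone gives such a gap in some groups. Without AY036118 and Gm42418, the lincRNA entries at the ribosomal RNA repeat, the shares were 1.42%, 1.43%, 1.51% and 1.46%.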

How the results depend on the processing

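The lower amount of oocyte RNA in 1/8 kept its direction under every alternative tried, with a log2 difference of gene counts per ERCC count from -2.89 to -2.81 when single libraries were left out and of -4.94 with the 18-cycle whole oocytes in place of the reference, an alternative chosen after seeing the data. With ERCC scaling, 13184 to 14737 genes were lower when single libraries were left out, and the median ran from -3.28 to -2.90. A filter of at least 10 counts in every library left fewer genes to test, of which 9838 were lower with a median of -2.87. A fit with replicate numbers as blocks gave 14865 lower genes with a median of -3.01.

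In composition, edgeR called 0 genes at the 0.01 threshold under every alternative except no filter, which gave 313 higher and 374 lower, and DESeq2 gave 300 higher and 259 lower; the cause was not tested. The median log2 fold change was -0.43 without a filter, 0.0041 with at least 10 counts in every library, -0.020 and -0.028 with only the whole oocytes at 10 or at 14 cycles, -0.061 with 3 groups in one fit, -0.086 with TMM, -0.097 in the fit with replicate numbers as blocks, and -0.18 to -0.051 when single libraries were left out. With counts drawn down to the smallest total, an alternative chosen after seeing the data like the threshold of 0.05, it was -0.016. Where 1 library of 1/8 was left out, the other was assumed to vary like the whole oocytes. The deviations of libraries sharing a replicate number correlated by -0.16 to 0.03 across all genes and by -0.04 to 0.15 across the 9866 genes with at least 10 counts in every library.

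The share of genes kept in 1/8 was 86.0% at a minimum of 1 count, 91.7% at 10 counts, 74.9% on the deposited counts, where depths differ, and 88.9% for the genes measured in both whole oocytes at 14 cycles. With a single 1/8 library, which has to pass only once, it was 94.0% to 94.6%. The number of genes measured in both 1/8 libraries does not depend on that choice of reference genes, so no value is given for it. The median difference between the 1/8 libraries was 0.46 on deposited counts and 0.48 with a pseudocount of 0.5.

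Some class shares changed direction, all in classes that overlapped between the groups. With reads on no feature added to the total, the difference of 1/8 from whole oocytes in percentage points was 2.04 for protein-coding genes, 0.00359 for antisense genes, 0.385 for exons of 4 to 8 kb, and 0.520 for GC content of 40 to 45%, 0.459 for 45 to 50% and 0.213 for 50 to 55%. When single libraries were left out, the differences ran from -0.0473 to 0.0128 for antisense genes, -0.348 to 1.14 for GC content under 40%, -2.46 to 2.32 for 40 to 45%, -1.34 to 0.821 for 45 to 50%, -2.35 to 1.36 for 50 to 55%, -1.84 to 2.94 for 55% or more, -0.462 to 0.0432 for the subcortical maternal complex and -0.180 to 0.428 for the 10 most abundant genes. The GC content of the counts differed between the 1/8 libraries, and the cause was not tested. The depth of 1/8 replicate 2 limits what can be said of genes below about 20 counts.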
